A study of Mus musculus with 10 samples.

Results

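The glutathione, peroxiredoxin and thioredoxin genes are for the most part thiol-based antioxidant and detoxification genes, taken here with some genes that are not thiol-based. They were chosen by gene name: the soluble and microsomal glutathione S-transferases, the glutathione peroxidases, the enzymes that make and recycle glutathione, the peroxiredoxins, the thioredoxins with their reductases and domain proteins, the superoxide dismutases, catalase, and the quinone reductases and heme oxygenases. The name pattern found 62 of the 12160 genes listed in an RNA-seq table of pancreatic epithelial cells, with Mgst3 left out by the rule. A further 10 genes that the pattern names in the annotation, among them Nqo1 and Gsta2, were not analysed here.

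All cells came from the pancreata of male, wild type CD1 mice that were given 4 cycles of caerulein at 250 μg/kg, a cholecystokinin analogue that injures acinar cells and brings on chronic pancreatitis. Tuft cells, a chemosensory epithelial cell type that appears in this injury, were sorted as Cd45-neg; EpCAM+; Siglec f+ cells, and the non-tuft epithelial cells beside them were Cd45-neg; EpCAM+; Siglec f-neg. Each of the 5 tuft and 5 non-tuft libraries was made by Smart-Seq2 from 100 cells, with the libraries of a group from individual mice, and untreated mice were not analysed here. The strain entry of the labels reads Mixed, whereas the protocol names CD1.

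Glutathione is a small tripeptide of glutamate, cysteine and glycine, and cells use it as a reducing agent and as a handle for toxic compounds. Glutathione peroxidases spend it on peroxides, glutathione S-transferases join it to electrophiles, and glutathione reductase renews it. Peroxiredoxins break down hydrogen peroxide with a reactive cysteine that thioredoxin then restores, and thioredoxin itself is kept reduced by thioredoxin reductase. Many of these genes are switched on by the transcription factor NRF2, and acinar cells, which fold large amounts of secreted enzymes, carry several of the endoplasmic reticulum members.

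The values are log2(RPKM + 1), quantile normalized across the libraries, so levels are per transcript length and read depth is unknown. A gene called higher or lower has an adjusted p under 0.05 by limma with Benjamini-Hochberg adjustment over all 12160 genes and a fold over 4 on this scale, which understates the change of genes with low values. A value of 0 is given only as listed at 0, since no read and a failed estimate cannot be told apart, and the lowest value in non-tuft library 2 is 0.17 in place of 0. Because RNA was pooled from sorted cells, fewer cells of a type and less RNA per cell cannot be told apart.

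The sorted populations were checked against marker lists, as sums of linear values. All 14 tuft markers were called higher in the tuft libraries, with sums of 4636 to 12882 against 1.17 to 551 in the non-tuft libraries. Acinar markers, digestive enzymes for the most part, summed to 815 to 77758 in the tuft libraries and 77745 to 122362 in the non-tuft libraries, and 18 of 22 were called lower in tuft cells. Tuft library 4 had the highest acinar sum of the tuft libraries and tuft library 5 the lowest. Of 11 ductal markers 2 were called lower (649 to 1260 against 1506 to 11339), and of 15 islet markers 4 (28.0 to 124 against 2.71 to 22706, with Gcg and Ppy listed at 0 in every tuft library). Leukocyte markers gave 1 of 7 called higher, with sums of 20.5 to 81.7 and 8.52 to 147. The 8 fibroblast and endothelial markers, none of them called, summed to 254 in tuft library 5 and were listed at 0 in the other tuft libraries, and they summed to 754 in non-tuft library 5 against at most 23.1 in the other non-tuft libraries. The part of these other cells in the differences below was not tested.

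The linear values of the 62 members summed to 3121 to 5159 in the tuft libraries and 3636 to 4868 in the non-tuft libraries, and to 2788 to 9959 against 2369 to 4013 with each library centred on ribosomal protein genes, so the groups overlapped on both scales while the mix of genes differed. The pi class transferase Gstp1 was higher in tuft cells by a narrow test, whereas the mu class genes Gstm1, Gstm2 and Gstm3, the alpha class gene Gsta3 and the peroxiredoxins Prdx1 and Prdx4 were lower. Of the 62 members 1 was called higher (1.61%), beside 4.32% of all listed genes, and 7 were called lower (11.3%), beside 3.99% of all listed genes. Without the fold threshold 2 members were higher (3.23%, against 6.19% of all genes) and 11 were lower (17.7%, against 5.55%). The tuft and non-tuft values did not overlap for 4 members higher in tuft cells (6.45%, against 6.31%) and for 10 that were lower (16.1%, against 5.12%). The median log2 difference was -0.03 over the members and 0.02 over all genes, and the signs were divided into 29 positive and 33 negative. The number called lower was 4 when non-tuft library 3 was left out, beside 464 of all genes. The single member called higher was lost when both libraries numbered 5 were left out, an alternative added after the data were seen. The plot of all 62 differences shows the spread within each role.

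**Figure D1:**
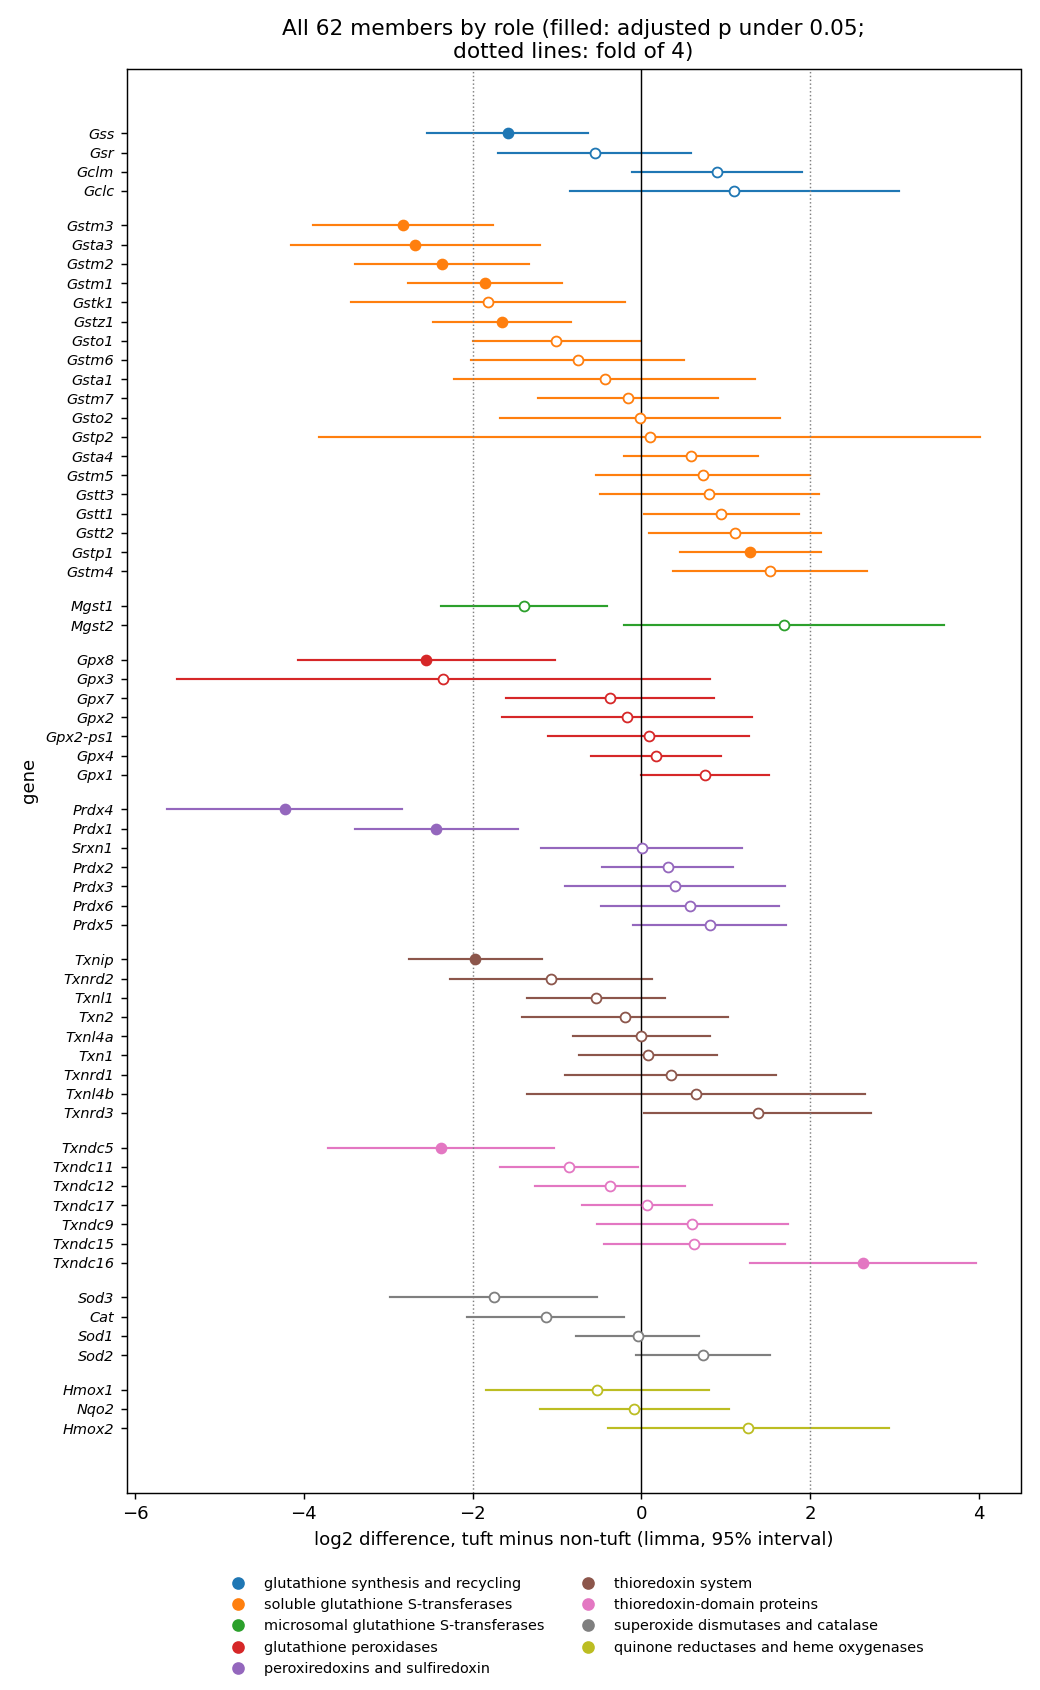
Log2 difference (tuft minus non-tuft, limma, x axis) of each of the 62 members (y axis, grouped by role and coloured), with 95% intervals as lines. Filled points have an adjusted p under 0.05, and the dotted lines mark a fold of 4. The 11 filled points to the left include Prdx4 at -4.23, and the 2 filled points to the right are Gstp1 and Txndc16.

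The scaling matters for how these differences are read. The 80 ribosomal protein genes had mean levels of 6.61 to 7.72 log2 units in the tuft libraries and 7.75 to 8.18 in the non-tuft libraries, and centring each library on them moved the median difference of all genes up by 0.80. With that centring, 85.1% of the called genes were higher in tuft cells, against 52.0% as deposited. Of the 62 members 4 were then called higher (Gstp1, Gstm4, Txnrd3 and Txndc16) and 2 lower (Prdx4 and Gstm3). Of all 12160 listed genes 1289 were called higher and 225 lower with that centring. Without the fold threshold Gclm, Gpx1, Gsta4, Gstt1, Gstt2, Prdx5 and Sod2 also passed as higher. The sign changed for 14 members, none of them a member that passed the test as deposited. Relative to the shift each difference keeps the value given below.

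Of the members, 42 were above the lowest value in every library, 20 were at it in at least 1 library, and none was at it throughout a group. Mean levels ran from 0.43 to 9.39 log2 units, and 19 of the 62 were among the tenth of listed genes with the highest means. Libraries had 4 to 13 members at their lowest value in tuft cells and 5 to 10 in non-tuft cells.

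The soluble glutathione S-transferases were the most abundant family. Of 19 listed genes, 3 were called lower and none higher, and at an adjusted p under 0.05 there were 5 lower and 1 higher. Gstp1 (chr19:4035411-4037921, minus strand, mm9) had the highest mean of all members. It measured 9.61, 10.02, 10.68, 9.42 and 10.43 log2 units in tuft libraries 1 to 5, and 9.18, 8.75, 8.29, 8.89 and 8.60 in non-tuft libraries 1 to 5. Every tuft library was above every non-tuft library. The means were 10.03 ± 0.53 and 8.74 ± 0.33 (SD, n = 5 each), a log2 difference of 1.29 (SE 0.39, limma adjusted p = 0.0477). The adjusted p is only just under 0.05: leaving out a single library took it over 0.05 for 7 of the 10 libraries (tuft 2, 3 and 5 and non-tuft 2 to 5), with the adjusted p between 0.0365 and 0.112, and the difference staying between 1.13 and 1.44. With the library number as a replicate block the adjusted p was 0.0937 by limma. It was also over 0.05 with 0.1 added before log2 and with both libraries numbered 5 left out.

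Gstp1 has a neighbour of nearly the same sequence, Gstp2 (chr19:4040291-4042221), and the reads of the pair are hard to separate. The coding sequences are 98.1% identical, with 12 of 633 bases different, and 67.5% of the 50-base stretches of the Gstp1 transcript also lie in Gstp2. The first 60 coding bases, from the mm9 gene annotation, are shown because they hold 6 of the differing bases, which are in capitals.
Gstp1: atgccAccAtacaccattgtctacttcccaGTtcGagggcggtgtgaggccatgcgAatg
Gstp2: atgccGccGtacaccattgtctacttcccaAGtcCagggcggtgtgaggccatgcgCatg
Gstp2 was listed at 8.29 in tuft library 3 and 7.82 in non-tuft library 2, and at the lowest value in the other 8 libraries. Such an all-or-none pattern across libraries leaves the division between the pair uncertain, so the sum is the safer quantity. Summed as linear values, the pi class came to 683 to 1954 (median 1037) in tuft libraries and 312 to 653 (median 474) in non-tuft libraries, without overlap, and the ranges stayed apart with the ribosomal centring (695 to 3773 against 257 to 425).

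The mu class showed the opposite. Its genes lie side by side on mouse chromosome 3 (chr3:107698739-107847812, mm9) in the order Gstm5, Gstm7, Gstm6, Gstm3, Gstm2, Gstm1 and Gstm4, and they encode enzymes that conjugate a wide range of electrophiles. Gstm1 (chr3:107815173-107820891, minus strand), the most abundant of them, measured 5.94, 6.26, 5.74, 7.06 and 5.52 in tuft libraries and 8.50, 7.73, 7.90, 8.39 and 7.27 in non-tuft libraries. The groups did not overlap, and the log2 difference was -1.85 (SE 0.42, limma adjusted p = 0.0113), short of a fold of 4.

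Gstm2 (chr3:107784620-107789371, minus strand) measured 3.05, 4.51, 3.65, 4.91 and 3.73 in tuft libraries and 5.47, 6.03, 6.32, 7.32 and 6.52 in non-tuft libraries. It was called lower, with a log2 difference of -2.36 (SE 0.48, limma adjusted p = 0.00554). Gstm3 (chr3:107745251-107772201, minus strand) had values of 1.21 and 1.68 in tuft libraries 1 and 3 and a listed 0 in the other 3, against 2.86 to 4.62 in the non-tuft libraries. Its log2 difference was -2.83 (SE 0.49, limma adjusted p = 0.00235). The 3 genes that fell are next to one another in the cluster, and the remaining 4 did not pass the test.

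Among those 4, Gstm4 at the end of the cluster had the opposite sign. It measured 3.33 to 4.87 in tuft libraries and 1.67 to 4.36 in non-tuft libraries, a log2 difference of 1.53 (95% interval 0.38 to 2.67, limma adjusted p = 0.0854). The difference of Gstm5 was 0.73 (interval -0.54 to 2.00) and that of Gstm7 was -0.16 (interval -1.23 to 0.91), so neither direction is settled for them. Gstm6 was at the lowest value in 7 of 10 libraries. Gstm1 and Gstm3 are 89.5% identical over their coding bases and Gstm1 and Gstm2 86.0%, and 14.8% of the 50-base stretches of Gstm1 and 15.3% of those of Gstm3 occur in another coding gene, so part of the division among them is uncertain. The mu class sum was 176 to 317 (median 245) in tuft libraries and 343 to 652 (median 523) in non-tuft libraries, without overlap, but with ribosomal centring the ranges overlapped (195 to 473 against 223 to 477).

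Shares within a family do not change when all linear values of a library are multiplied by a common factor, as in the ribosomal centring. They can still depend on the quantile normalization. The pi class held 51.6% to 74.9% of the soluble transferase sum in tuft libraries and 23.2% to 51.2% in non-tuft libraries. The mu class held 9.28% to 23.8% and 26.9% to 40.2%. Neither share overlapped between the groups, though for the pi class tuft library 4 and non-tuft library 2 were nearly level. The sum over all 19 genes was 1297 to 2610 in tuft and 1190 to 1638 in non-tuft libraries, with overlap, and 1158 to 5039 against 830 to 1198 with the ribosomal centring.

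**Figure D2:**
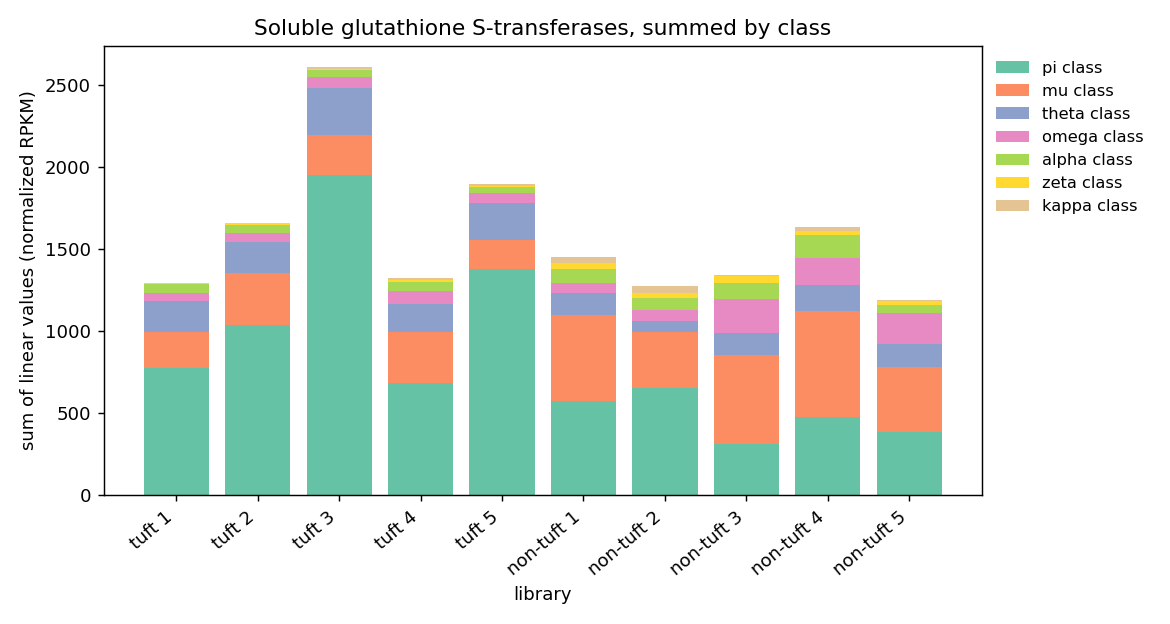
Sum of linear values (quantile-normalized RPKM, y axis, from 0) of the 19 soluble glutathione S-transferases in each of the 10 libraries (x axis), stacked by class. The pi segment is 683 to 1954 in tuft libraries and 312 to 653 in non-tuft libraries, and the mu segment is 176 to 317 and 343 to 652.

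The other transferase classes were smaller. Gsta3 (chr1:21230670-21255442, plus strand), an alpha class enzyme also active in steroid isomerization, measured 4.24, 4.08, 1.61, 4.68 and 1.39 in tuft libraries and 6.21, 5.72, 6.13, 6.60 and 4.74 in non-tuft libraries. The groups were separate by a narrow gap, between tuft library 4 and non-tuft library 5. The log2 difference was -2.68 (SE 0.68, limma adjusted p = 0.0211), and the call was lost without tuft library 3 or 5 or non-tuft library 3 or 4, with an adjusted p of at most 0.0617. Gsta4, which handles lipid aldehydes such as hydroxynonenal, was 4.91 to 5.27 in tuft and 3.65 to 4.82 in non-tuft libraries, without overlap, yet its difference of 0.59 did not pass (limma adjusted p = 0.354).

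Gstz1 (chr12:88488668-88505673, plus strand), the zeta class enzyme that also acts in tyrosine breakdown as maleylacetoacetate isomerase, measured 3.0, 3.85, 3.48, 3.29 and 2.80 in tuft libraries and 5.22, 4.86, 5.48, 4.55 and 4.57 in non-tuft libraries. Its groups did not overlap, and the log2 difference was -1.65 (SE 0.38, limma adjusted p = 0.0121). The theta genes Gstt1, Gstt2 and Gstt3 had differences of 0.95, 1.11 and 0.80 and did not pass, although their summed level did not overlap between the groups (170 to 285 against 68.8 to 157). Gsto1 had a difference of -1.01 and Gstk1 of -1.82, with adjusted p values of 0.189 and 0.151 by limma. Gsta1, 89.7% of whose 50-base stretches lie in other genes, and Gsto2 were above the lowest value in only 2 libraries each.

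The acinar content of the tuft libraries stood beside these values as follows. Tuft library 4, with the highest acinar marker sum, held the highest tuft value of Gstm1, Gstm2 and Gsta3. Tuft library 5, with the lowest acinar sum, held the lowest tuft value of Gstm1, Gsta3, Gstz1 and Prdx1. Other members that were lower in tuft cells did not follow that order: tuft library 4 had the lowest tuft value of Gss (2.73) and Txndc5 (0) and a listed 0 for Gstm3, Gstm2 was lowest in tuft library 1, and Prdx4 was highest in tuft library 2 and listed at 0 in tuft library 1. The part of acinar RNA in these values was not tested.

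The 2 microsomal transferases, membrane enzymes of which Mgst1 also reduces lipid peroxides, did not pass the test. Mgst1 was among the most abundant members, at 6.76, 7.98, 8.18, 7.14 and 8.62 in tuft libraries and 9.55, 8.36, 9.51, 9.42 and 8.77 in non-tuft libraries. The groups overlapped through tuft library 5 and non-tuft library 2, and the log2 difference was -1.39 (95% interval -2.37 to -0.40, limma adjusted p = 0.0685). Without non-tuft library 2 the adjusted p was 0.0460. Mgst2 had a difference of 1.69 (interval -0.20 to 3.58), with a value of 0 listed in non-tuft library 1.

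Of the peroxiredoxins and sulfiredoxin, 2 of 7 were called lower and none higher. Prdx4 (chrX:151758461-151775297, minus strand), the peroxiredoxin of the endoplasmic reticulum that removes the hydrogen peroxide made during disulfide formation, had the largest difference of all 62 members. It was listed at 0, 4.0, 3.31, 2.44 and 2.61 in tuft libraries 1 to 5 and at 6.94, 7.39, 6.23, 6.73 and 6.22 in non-tuft libraries 1 to 5. The highest tuft value was well under the lowest non-tuft value. The log2 difference was -4.23 (SE 0.64, limma adjusted p = 0.00098), and it lay between -4.61 and -3.61 with any one library left out.

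Prdx1 (chr4:116358149-116373427, plus strand), the main cytosolic peroxiredoxin and a known NRF2 target, measured 6.81, 6.68, 5.67, 6.79 and 5.57 in tuft libraries and 8.70, 7.80, 9.45, 8.56 and 9.17 in non-tuft libraries. The groups did not overlap. The means were 6.30 ± 0.63 and 8.74 ± 0.63 (SD, n = 5 each), a log2 difference of -2.43 (SE 0.45, limma adjusted p = 0.00327). No part of Prdx4 is shared with another gene over 50 bases, and 9.49% of Prdx1 is.

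The other peroxiredoxins did not follow Prdx1 and Prdx4 past the test. Prdx2, the cytosolic form abundant in red blood cells, was 7.41 to 8.37 in tuft libraries and 7.43 to 8.09 in non-tuft libraries, a difference of 0.31 (95% interval -0.47 to 1.09, limma adjusted p = 0.641). Prdx3, the mitochondrial form, differed by 0.40 (interval -0.91 to 1.71), and Prdx6, which uses a single cysteine, by 0.58 (interval -0.48 to 1.63). Prdx5 was 5.00 to 5.78 in tuft and 3.36 to 4.98 in non-tuft libraries, without overlap, but its difference of 0.81 had an adjusted p of 0.257 by limma, and 29.7% of its 50-base stretches lie in the neighbouring gene Trmt112. Srxn1, sulfiredoxin, which repairs overoxidized peroxiredoxins, was near the lowest value in both groups, at up to 1.75 in tuft and 2.19 in non-tuft libraries.

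The make-up of the family differed accordingly. Prdx1 held 34.7% to 61.2% of the summed peroxiredoxin level in non-tuft libraries and 7.41% to 23.4% in tuft libraries, where Prdx2 held 32.2% to 53.7% against 15.2% to 28.4%. Prdx4 held 6.49% to 26.0% in non-tuft libraries and at most 2.71% in tuft libraries. None of these 3 shares overlapped between groups. The family sum was 475 to 674 in tuft and 640 to 1139 in non-tuft libraries (means of 559 and 915), but 424 to 1302 against 417 to 939 with the ribosomal centring (means of 792 and 709), so the direction of the sum depends on the scaling.

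**Figure D3:**
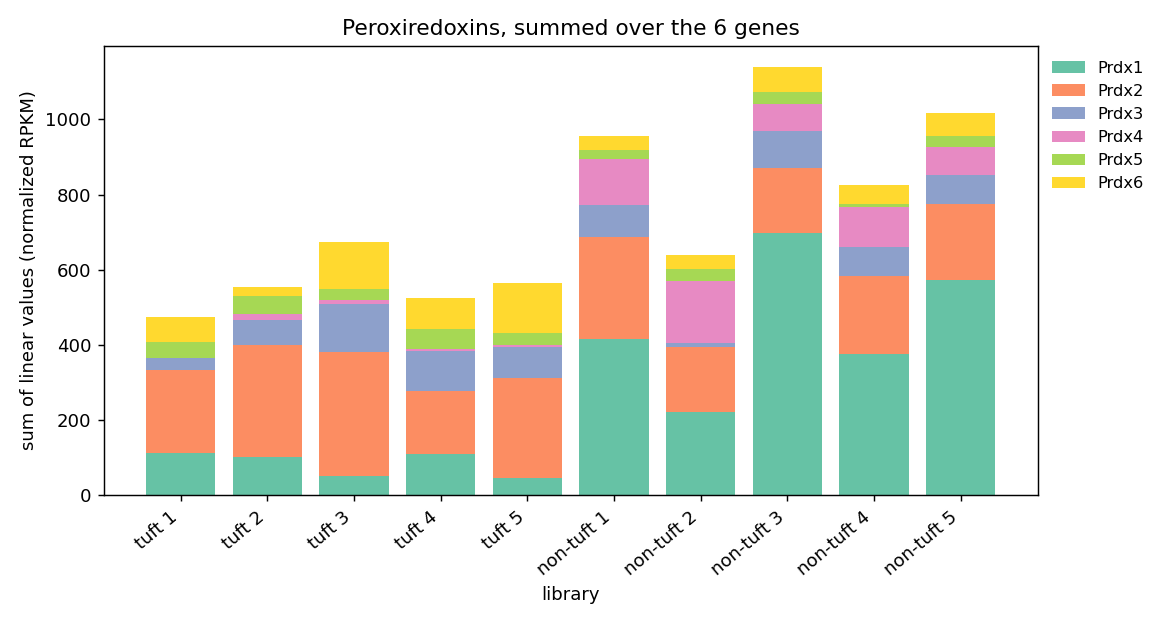
Sum of linear values (quantile-normalized RPKM, y axis, from 0) of the 6 peroxiredoxin genes in each of the 10 libraries (x axis), stacked by gene. Prdx1 makes up 34.7% to 61.2% of the non-tuft bars and 7.41% to 23.4% of the tuft bars, and Prdx4 is at most 2.71% of the tuft bars.

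Among the 7 glutathione peroxidase genes, 1 was called lower. Gpx1, the cytosolic selenoprotein, was the most abundant, at 8.49, 9.23, 8.92, 8.92 and 8.92 in tuft libraries and 7.88, 8.50, 8.14, 8.43 and 7.78 in non-tuft libraries. The ranges met at tuft library 1 and non-tuft library 2, and the difference of 0.75 did not pass (95% interval -0.01 to 1.51, limma adjusted p = 0.204). Gpx4, the enzyme that reduces lipid hydroperoxides in membranes and guards against ferroptosis, was 6.76 to 7.00 in tuft and 6.01 to 7.12 in non-tuft libraries, a difference of 0.17 (interval -0.59 to 0.94). Gpx2, the gastrointestinal form, was widely spread in both groups, at 4.79 to 7.17 and 4.23 to 8.08, and its annotated pseudogene Gpx2-ps1, with 59.5% of its stretches shared, cannot be separated from it.

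Gpx8 (chr13:113832971-113836596, minus strand), a peroxidase of the endoplasmic reticulum, measured 0, 0, 1.21, 0 and 0.69 in the tuft group. The non-tuft values were 2.82, 0.17, 3.84, 3.12 and 4.71, so the groups overlapped through non-tuft library 2, where Gpx8 was at the lowest value. The log2 difference was -2.55 (SE 0.71, limma adjusted p = 0.0319), and the call was lost on leaving out any library other than tuft 3 and non-tuft 2, with the adjusted p reaching 0.0824. Gpx3, the secreted peroxidase, was highest in library 5 of both groups (6.63 in tuft and 7.91 in non-tuft) and was listed at 0 in tuft libraries 2 and 4 and non-tuft library 4. Gpx7 and Sod3, the extracellular superoxide dismutase, were also highest in library 5 of each group, the libraries that hold fibroblast marker transcripts. Gpx8 was highest in library 5 among the non-tuft libraries but not among the tuft libraries. Its call was lost with both libraries numbered 5 left out. The part of fibroblasts in these values was not tested.

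Of the 4 genes that make and recycle glutathione, none was called and Gss passed on the adjusted p alone. Gss (chr2:155388917-155418546, minus strand), glutathione synthetase, which adds glycine in the last step, measured 3.71, 4.03, 3.92, 2.73 and 3.31 in tuft libraries and 6.14, 4.39, 5.38, 4.60 and 5.12 in non-tuft libraries. The groups did not overlap, and the log2 difference was -1.58 (SE 0.44, limma adjusted p = 0.0338). Leaving out tuft library 1, 3, 4 or 5 or non-tuft library 1, 3 or 5 took the adjusted p over 0.05, to at most 0.0781. The catalytic and modifier subunits of the rate-limiting glutamate-cysteine ligase, Gclc and Gclm, had positive differences of 1.10 (95% interval -0.85 to 3.05) and 0.90 (interval -0.11 to 1.91) that did not pass. Gsr, glutathione reductase, had a difference of -0.56 (interval -1.69 to 0.58).

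In the thioredoxin system 1 of 9 genes passed. Txnip (chr3:96361880-96365806, plus strand), the thioredoxin-interacting protein that binds and inhibits thioredoxin and limits glucose uptake, measured 4.29, 3.61, 3.97, 3.73 and 4.16 in tuft libraries and 5.72, 5.36, 6.41, 6.16 and 5.95 in non-tuft libraries. Values within each group were close together and the groups did not overlap. The means were 3.95 ± 0.29 and 5.92 ± 0.40 (SD, n = 5 each), a log2 difference of -1.97 (SE 0.36, limma adjusted p = 0.00342), just short of a fold of 4. Its target Txn1, cytosolic thioredoxin, was 6.15 to 7.10 in tuft and 6.19 to 6.93 in non-tuft libraries, a difference of 0.08 (95% interval -0.74 to 0.89).

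The mitochondrial thioredoxin Txn2 differed by -0.19 (interval -1.41 to 1.02) and the cytosolic reductase Txnrd1 by 0.35 (interval -0.90 to 1.60). The other reductases were at low levels. Txnrd2, the mitochondrial one, was 0 to 1.44 in tuft and 0 to 2.71 in non-tuft libraries, and Txnrd3 was 1.19 to 3.48 and 0 to 2.96, and neither passed (limma adjusted p of 0.255 and 0.189). The thioredoxin-like gene Txnl4a, a spliceosome component, was level in both groups with means of 5.22 and an interval of -0.81 to 0.81.

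The thioredoxin-domain proteins held the single member called higher and 1 called lower, out of 7. Txndc16 (chr14:45754123-45840003, minus strand), a protein of the endoplasmic reticulum, measured 4.48, 5.56, 5.25, 4.88 and 5.58 in tuft libraries and 3.01, 3.95, 2.86, 2.73 and 0.10 in non-tuft libraries. Every tuft library was above every non-tuft library, and non-tuft library 5 was far below the other 4. The log2 difference was 2.62 (SE 0.62, limma adjusted p = 0.0144). With both libraries numbered 5 left out it was 1.91, under a fold of 4, and the adjusted p was 0.0270.

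Txndc5 (chr13:38591948-38620693, minus strand), a protein disulfide isomerase of the endoplasmic reticulum, measured 1.64, 2.89, 3.36, 0 and 3.19 in tuft libraries and 4.51, 4.48, 5.54, 4.06 and 4.37 in non-tuft libraries. The groups did not overlap, and the log2 difference was -2.37 (SE 0.62, limma adjusted p = 0.0241). The call was lost without tuft library 1 or non-tuft library 3 (adjusted p of at most 0.0641) and, with both libraries numbered 5 left out, at an adjusted p of 0.0571. The other 5 had differences between -0.86 (Txndc11) and 0.63 (Txndc15), and none passed.

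**Figure D4:**
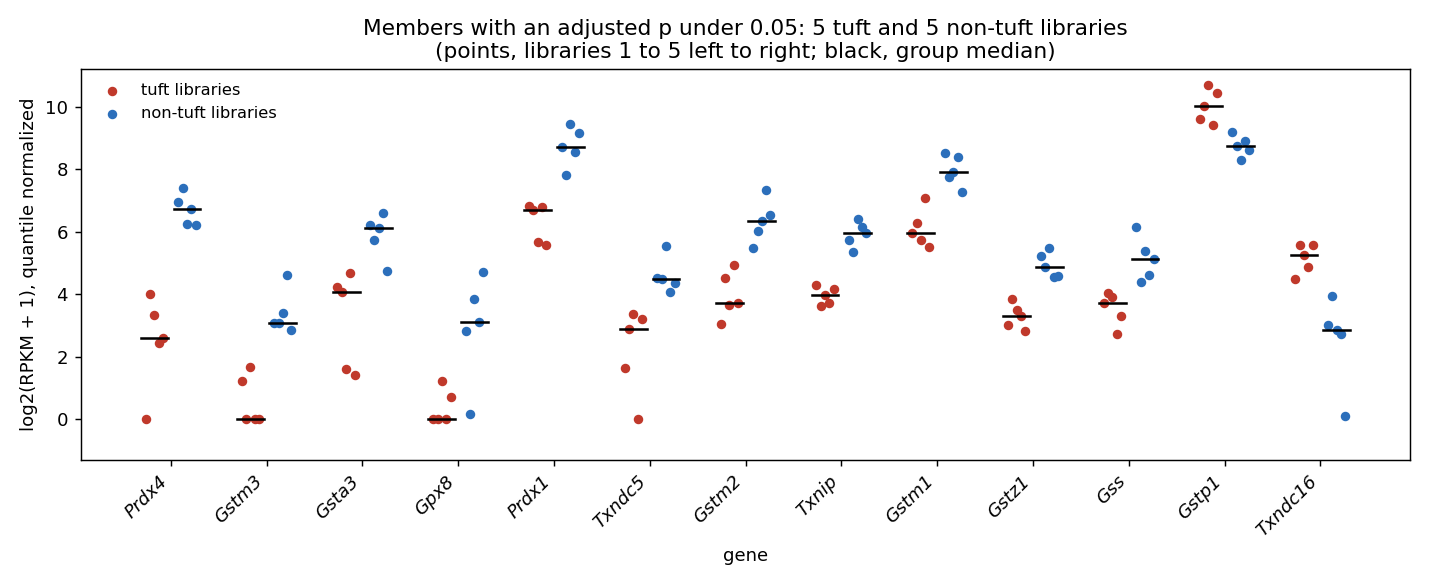
Levels (log2(RPKM + 1), quantile normalized, y axis) of the 13 members with an adjusted p under 0.05 (x axis, ordered by difference) in 5 tuft and 5 non-tuft libraries, each point a library and each black line a group median. The groups are separate for all 13 except Gpx8, where non-tuft library 2 lies at 0.17, and only Gstp1 and Txndc16 are higher in tuft cells.

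None of the 3 superoxide dismutases or catalase passed. Sod1, the cytosolic copper-zinc enzyme, was 6.65 to 7.08 in tuft and 6.54 to 7.24 in non-tuft libraries, a difference of -0.05 (95% interval -0.78 to 0.69). Sod2, the mitochondrial manganese enzyme, was 2.98 to 4.22 and 2.74 to 3.14, a difference of 0.73 (interval -0.06 to 1.52). Cat, the peroxisomal catalase, was 4.21 to 5.37 and 5.30 to 6.99, a difference of -1.14 (interval -2.06 to -0.21, limma adjusted p = 0.113). Sod3 had 1.11 in tuft library 5 and a listed 0 in the other 4, with 1.96, 0.17, 1.75, 2.32 and 3.64 in non-tuft libraries (difference -1.75, limma adjusted p = 0.0658). Hmox1, the inducible heme oxygenase, was at the lowest value in 6 libraries and reached 2.66 in non-tuft library 3. Hmox2, the constitutive form, was 3.79 to 5.35 in tuft and 4.0 to 4.54 in non-tuft libraries other than library 2, where it was 0.17. Nqo2 differed by -0.08 (interval -1.20 to 1.04).

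NRF2 binds the antioxidant response element as a dimer with a small MAF protein, and KEAP1 holds it in check. The core of that element, TGACNNNGC read on both strands, was searched in 300-base RefSeq promoters (GRCm38.p6, from 250 bases before the start site to 50 after it), which were at hand for 52 of the 62 members. A gene was counted when any of its promoters held the core. That was so for 11 of 52 members (21.2%), against 16.9% of 9112 listed genes and 13.99% of 27025 genes. Of these, Gstm7, Mgst1, Txndc5, Txndc11 and Txnrd1 also have promoters without the core. Of the 13 members that passed the test, Prdx1, Gsta3 and Txndc5 hold the core. The windows of these 3, which fell, are printed beside those of Gclm and Txnrd1, known NRF2 targets that did not pass, so that the sites can be set side by side. Capitals mark the core, on either strand, and each window is written along its own gene.
Gsta3, chr1:21240434-21240502, plus strand: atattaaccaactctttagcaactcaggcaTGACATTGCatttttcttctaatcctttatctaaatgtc
Prdx1, chr4:116685436-116685504, plus strand: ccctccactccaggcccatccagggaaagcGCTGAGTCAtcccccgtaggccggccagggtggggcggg
Txndc5, chr13:38528014-38528082, minus strand: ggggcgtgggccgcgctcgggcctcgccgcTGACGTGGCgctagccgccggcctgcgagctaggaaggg
Gclm, chr3:122245393-122245461, plus strand: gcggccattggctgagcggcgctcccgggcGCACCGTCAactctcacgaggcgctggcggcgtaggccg
Txnrd1, chr10:82859084-82859152, plus strand: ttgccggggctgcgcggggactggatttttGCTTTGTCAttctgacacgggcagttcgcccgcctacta
The matches lie at different distances from the start site, and a match is a description of letters and not a bound site.

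The genes around these pathways were followed in 5 further lists that hold 121 genes in all, of which 8 were called higher and 12 lower, beside 4.32% and 3.99% of all listed genes. Of the 16 regulators of the NRF2 pathway none was called. Nfe2l2, which encodes NRF2, was 2.13 to 3.12 in tuft and 2.74 to 3.60 in non-tuft libraries, a difference of -0.33 (95% interval -1.15 to 0.48, limma adjusted p = 0.629). Keap1 was 2.40 to 4.05 and 3.41 to 4.64, a difference of -0.58 (interval -1.48 to 0.32, limma adjusted p = 0.432). Mafk, a small MAF partner, was the one regulator that passed on the adjusted p, with 4.07 to 4.41 in tuft and 1.91 to 4.04 in non-tuft libraries (difference 1.42, limma adjusted p = 0.0468).

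Other genes listed as NRF2 targets moved both ways: of 34, 4 were called higher and 3 lower. Aldh3a2, the fatty aldehyde dehydrogenase, was 7.57 to 8.52 in tuft and 2.83 to 4.97 in non-tuft libraries, a difference of 4.16 (SE 0.44, limma adjusted p = 6.71e-05). Fth1, the ferritin heavy chain that stores iron, was 12.86 to 14.43 and 10.08 to 11.16, a difference of 3.25 (limma adjusted p = 0.000399). Gde1, a glycerophosphodiester phosphodiesterase, was 6.30 to 7.55 and 4.0 to 5.39, a difference of 2.08 (limma adjusted p = 0.00596). The groups did not overlap for these 3 genes, and the value of 14.43 shared by 3 tuft libraries marks an equal rank, to which quantile normalization gives an equal value. The fourth gene called higher was Cbr3, a carbonyl reductase, and the 3 called lower were Aldh7a1, Aldh1a1 and Ephx1, the microsomal epoxide hydrolase.

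Of the 27 genes for cysteine supply and glutathione breakdown, 8 were called lower and none higher, beside 3.99% and 4.32% of all listed genes. The adjusted p was not under 0.05 for 18 of them, and among these Mtrr, Esd, Mat2a and Lap3 had small positive differences. Cbs, cystathionine beta-synthase, which starts the route from homocysteine to cysteine, was 0, 0, 0.45, 0 and 0.59 in tuft libraries and 6.15, 5.71, 5.42, 6.22 and 5.27 in non-tuft libraries. Its log2 difference was -5.55 (SE 0.37, limma adjusted p = 2.07e-06), larger than that of any of the 62 members. Cth, the next enzyme of that route, had tuft values of 1.52 and 1.93 in libraries 1 and 4 and a listed 0 in the other 3, against 2.28 to 4.72 in non-tuft libraries. Upstream, Ahcy and Mat1a, which act in the methionine cycle, were also called lower, as was Cdo1, which breaks cysteine down.

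Chac1, which degrades glutathione inside the cell, was listed at 0 in all 5 tuft libraries and at 5.82, 5.44, 4.89, 5.11 and 2.67 in non-tuft libraries (limma adjusted p = 0.000102), and no fold is given against a group at 0. Anpep, the surface aminopeptidase that splits cysteinylglycine, was 0.33 to 1.84 in tuft and 4.26 to 5.35 in non-tuft libraries, a difference of -3.68 (SE 0.42, limma adjusted p = 0.000118). Ggt1, the gamma-glutamyl transferase that opens glutathione outside the cell, was 0.82 to 2.01 and 1.65 to 5.30. Slc7a11, the cystine importer, was listed at 0 in every tuft library and at 1.28 to 2.71 in non-tuft libraries (limma adjusted p = 0.0065). Separate groups were seen for Cbs, Cth, Ahcy, Cdo1, Chac1, Anpep and Slc7a11, while those of Ggt1 and Mat1a overlapped. Of all listed genes, 5.12% were lower in tuft cells without overlap. The 9 genes that passed the test all differed by more than the ribosomal shift of 0.80, so none changes sign with that centring. Their size alone does not tell whether each still passes with it, and fewer genes of the further lists were then called lower.

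**Figure D5:**
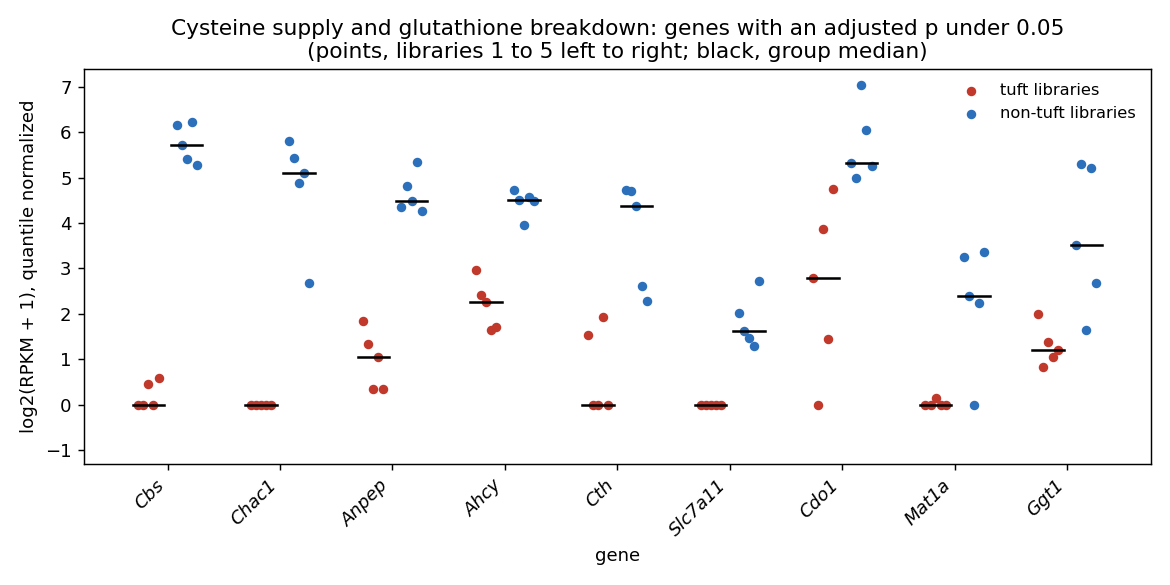
Levels (log2(RPKM + 1), quantile normalized, y axis) of the 9 genes of cysteine supply and glutathione breakdown with an adjusted p under 0.05 (x axis, ordered by p) in 5 tuft and 5 non-tuft libraries, each point a library and each black line a group median. All 9 were lower in tuft cells, and Chac1 and Slc7a11 were listed at 0 in all 5 tuft libraries.

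In the list of glutaredoxins, methionine sulfoxide reductases and selenoproteins 2 of 24 were called higher and none lower. Selm, a selenoprotein of the endoplasmic reticulum, was 7.20 to 7.89 in tuft and 3.21 to 5.57 in non-tuft libraries (difference 2.99, SE 0.45, limma adjusted p = 0.000908). Dio1, the selenoprotein deiodinase that activates thyroid hormone, was 1.36 to 3.95 and 0 to 0.32 (difference 3.21, limma adjusted p = 0.00114). Eefsec, the elongation factor for selenocysteine, passed on the adjusted p alone with a difference of 1.71 (limma adjusted p = 0.0396).

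The list of enzymes that make superoxide or hydrogen peroxide gave 2 called higher and 1 lower of 21. It also holds regulatory partners of such enzymes, and the 2 genes called higher are of that kind. Rac2, a small GTPase of blood cells, was 6.30 to 7.59 in tuft and 0 to 4.0 in non-tuft libraries (difference 5.91, limma adjusted p = 0.00012). Qsox2, a sulfhydryl oxidase that yields hydrogen peroxide, had 0.93 in tuft library 5 and a listed 0 in the other 4, against 2.38 to 4.91 in non-tuft libraries (difference -2.97, limma adjusted p = 0.00208). Among the leukocyte markers, whose sums overlapped between the groups, Ptprc, which encodes the Cd45 that the sort selected against, was 2.74 to 4.33 in tuft and 0 to 1.93 in non-tuft libraries and was called higher (difference 2.72, SE 0.49, limma adjusted p = 0.00292). The part of leukocytes in the Rac2 value was not tested.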

How the data were processed

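The 5 tuft and 5 non-tuft Smart-Seq2 libraries were sequenced as 50 bp single-end reads. Per the study's methods, the authors mapped reads to mm9 with HISAT2, took RPKM from StringTie and Ballgown, dropped genes of low variance, and quantile normalized; the deposited table holds log2(RPKM + 1) values. Its columns of the authors' own comparison (fold, p-value and adjusted p-value, all deposited) were not used. No counts were at hand, so depth is unknown, and precision rests on the number of libraries. Of 12160 listed genes, 1442 to 3753 per library were at its lowest value. The reported p-values measure only the spread between these libraries. The methods say that the libraries came from 5 mice, but the sources used here do not say whether libraries of equal number share a mouse, and the main fit was unpaired.

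All genes were fitted with limma 3.58.1 (lmFit and eBayes, R 4.3.3), with Benjamini-Hochberg adjustment over the 12160 genes, and checked on simulated data. The table has 18 entries with a date in place of a symbol, none a member. Sums used linear values (2 to the power of the value, minus 1). Positions are from GENCODE vM1 (mm9) and promoters from RefSeq (GRCm38.p6), whose coordinates are not comparable. Transcript sharing was counted over 50-base stretches. Members and lists were chosen with earlier results of these data known. Named were members with an adjusted p under 0.05, the 8 with the highest mean, the smallest p of each role, and the 3 smallest p among the called genes of each further list with Nfe2l2 and Keap1. One gene that this rule names is not reported here. Values given for other genes in the text were chosen after they were seen. Alternatives were a replicate block, 0.1 or 10 added before log2, a mean of at least 2, ribosomal centring, trend and robust fitting, other thresholds, a common floor, and each library left out.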

Additional observations from a re-analysis of the deposited data

Results flagged for a closer look

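In 2 of 40 groups of 5 values of the named members, 1 library stood apart by Dixon's criterion (gap over range above 0.71). The usual chance of about 1 group in 20 assumes normally distributed values. Some of these groups hold values at the floor, so the count is not read against that chance. Hmox2, the constitutive heme oxygenase, was at 0.17 in non-tuft library 2, the lowest value of that library, against 4.0 to 4.54 in the other non-tuft libraries. Non-tuft library 2 also had the most genes at their lowest value, 3753. Of the 50-base stretches of Hmox2, 47.7% are shared with 5730403B10Rik. Sod3, the extracellular superoxide dismutase, was at 1.11 in tuft library 5 and listed at 0 in the other tuft libraries. Any value above 0 would have met the criterion there. Tuft library 5 was also the tuft library with fibroblast and endothelial marker transcripts, at a sum of 254, and the part of fibroblasts in the Sod3 value was not tested.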

How the results depend on the processing

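Prdx4, Prdx1 and Gstm2 kept their direction and an adjusted p under 0.05 under every alternative run, and Gstm3 under every one but the filter on a mean of at least 2, which drops it. As deposited, 1 member was called higher and 7 lower. The members called higher numbered 0 with 0.1 added, with 10 added, with an adjusted p under 0.01 and with both libraries numbered 5 left out, 2 with a fold over 2 or no fold threshold, and 4 with ribosomal centring. Members called lower numbered 2 with 10 added, 2 with ribosomal centring, 11 with a fold over 2 or no fold threshold, and 4 with an adjusted p under 0.01. Of all 12160 genes, 525 were called higher and 485 lower as deposited, and 162 and 116 with 10 added. These counts were 537 and 542 with 0.1 added, 1289 and 225 with ribosomal centring, and 753 and 675 with no fold threshold. With both libraries numbered 5 left out they were 442 and 364. With single libraries left out the members called lower ranged from 4 (without non-tuft library 3) to 9, and those called higher stayed at 1. Of the genes in the 5 further lists, 8 were called higher and 12 lower, against 4 and 1 with 10 added and 17 and 5 with ribosomal centring. An adjusted p under 0.01 left 7 of them lower, and single libraries left out gave 6 to 10 higher and 9 to 13 lower. The median log2 difference of the members was 0.77 with ribosomal centring and -0.21 to 0.02 with single libraries left out. Sod1, near 0 as deposited, was 0.75 with ribosomal centring and ranged from -0.13 to 0.046 with single libraries left out (0.046 without non-tuft library 4), and Gpx4 ranged from -0.0065 (without non-tuft library 2) to 0.27. With 0.1 added, the adjusted p (limma) was 0.0550 for Gsta3, 0.0597 for Gss and 0.0648 for Gpx8. It was 0.0828 for Gstp1, 0.0879 for Txndc16 and 0.119 for Txndc5. With ribosomal centring it was 0.0719 for Txnip, 0.0868 for Gstm1, 0.135 for Gpx8, 0.138 for Txndc5, 0.169 for Gstz1 and 0.276 for Gss. Members that had not passed came under 0.05 as higher with that centring: Gstm4 (0.0131), Gpx1 (0.0205), Prdx5 (0.0235), Gstt2 (0.0242) and Sod2 (0.0269). Gstt1 (0.0296), Txnrd3 (0.0333), Gsta4 (0.0418) and Gclm (0.0439) did so as well. Over the 20 named members and all alternatives, 300 values kept direction and side of the threshold, 46 went over an adjusted p of 0.05, 8 came under it and 3 changed sign. Adding a constant of 10 lowers folds by construction; the cause of the other changes was not tested.

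With the library number as a replicate block, 1 member was called higher and 8 lower, and in the further lists 8 and 11. Of all genes 518 were then called higher and 491 lower. The added member is Gpx3 (difference -2.35, adjusted p = 0.0495 by limma). The block took the adjusted p of Gstp1 over 0.05 (0.0937) and that of Sod3 under it (0.0402), both short of a fold of 4. Deviations of same-numbered libraries correlated at 0.124, 0.0792, 0.115, 0.0619 and 0.240 over genes, all positive, against -0.174 to 0.139 for other pairs. Tuft library 1 correlated about as well with non-tuft library 2 (0.1243) as with non-tuft library 1 (0.1236). The sources used here do not tie the numbers to mice, so whether equal numbers pair the libraries is not settled. The main fit was left unpaired for that reason. Depth is unknown, and small differences of genes near 0 are not readable.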

Other observations

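Set on the scale of all members, Gstp1 alone held 18.7% to 31.8% of the summed linear level of the 62 genes in tuft libraries. In non-tuft libraries it held 6.41% to 12.8%. The division between Gstp1 and Gstp2 is uncertain, and the gap between the groups is narrower for the sum of the pair. In non-tuft library 2 Gstp1 held 11.8% and Gstp2 6.17%, against 18.7% for Gstp1 and a listed 0 for Gstp2 in tuft library 4. Gstp2 also held 6.07% in tuft library 3. Gpx1 held 9.40% to 14.4% and 5.15% to 9.91%, with a narrow overlap, and Mgst1 held 3.44% to 8.62% and 9.03% to 16.6%, without overlap. The share of Gpx1 within the glutathione peroxidase sum was 59.1% to 80.9% in tuft and 30.1% to 70.0% in non-tuft libraries.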
